A study of Mus musculus with 9 samples.

Results

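The receptors for EGF and FGF-2, the growth factors of the neurosphere medium, and their relatives were followed in 8 genes, namely Egfr with its relatives Erbb2, Erbb3 and Erbb4 (the ErbB family) and Fgfr1, Fgfr2, Fgfr3 and Fgfrl1 of the FGF receptor family. The genes were chosen by gene symbol, with earlier results of these data known, and were measured by 21 of the 45037 probe sets tested, a probe set being the group of short oligonucleotides that reads 1 transcript on an Affymetrix array. Of these, 12 probe sets of 5 genes had signal in the adult olfactory bulb stem cells (aOBSCs), and Egfr and Fgfr3 differed between culture conditions. Fgfr1 differed by its probe set of highest mean, a result lost in 11 of 16 alternative fits. Its other probe set with signal did not differ beyond its spread.

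In the study, aOBSCs came from CD1 mice or adult C57Bl/6 mice, and no transgene or mutation is named in the sources used here. The cells were grown as neurospheres, floating clusters of stem cells and their progeny. Their serum-free medium received both factors at 20 ng/ml. For the arrays, mice of 7 and 15 months are named, and which array came from which mouse or strain is not given in the sources used here. All cultures received the factors every day until passage 3. For 2 more passages, additions then came every 4 days in C4, every 2 days in C2 and daily in the control (Ctr), and each condition was measured on 3 arrays. RNA was taken after 7 days in culture, which was 1 day after the last addition in C2 and 3 days after it in C4, so that the interval between additions and the time since the last one cannot be told apart. The arrays are called biological replicates by the labels, but nothing says that they came from separate animals, and p-values measure the spread between these samples.

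ErbB and FGF receptors are membrane proteins with a kinase domain inside the cell. Binding of a ligand brings receptor molecules together, the kinases phosphorylate their tails, and adaptor proteins then pass the signal to RAS and the MAP kinases, ending in ERK, and to PI3K and AKT. EGFR binds EGF and related ligands, ERBB2 binds no known soluble ligand and acts as a partner of the others, ERBB3 has a weak kinase, and ERBB3 and ERBB4 bind neuregulins. FGFR1, FGFR2 and FGFR3 bind FGFs together with heparan sulphate, whereas FGFRL1 lacks the kinase domain. In the brain, EGF and FGF-2 are mitogens of neural stem cells, and Fgfr3 is known for its expression in radial glia and astrocytes.

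All values are log2 values normalised by the authors with GCRMA, so a difference of 1 is a doubling. GCRMA places transcripts without signal near a common low value, 2.27 on these arrays, and a probe set whose mean was under 4 in all 3 conditions is called at the floor. The conditions were compared with limma over all probe sets, and a call is an adjusted p under 0.05. The arrays of a condition correlated at 0.998 to 0.999 with each other over all probe sets, and at 0.995 to 0.996 between C4 and Ctr. Markers of neural stem and progenitor cells were present in every condition: Sox2 averaged 13.07, 12.94 and 13.00 in Ctr, C2 and C4, Olig2 averaged 12.13, 12.13 and 12.14, and Nes averaged 5.71, 5.65 and 6.12, while Prom1 lay at the floor (highest mean 2.27). Of the markers of microglia (8 genes) and endothelial cells (6 genes), 0 were above the floor.

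Egfr and Fgfr3 were higher in C4 than in Ctr, and the stretches of DNA before their transcription starts are shown with that of Fgfrl1, which had signal but did not differ. The sequences are the 250 bases before the start in RefSeq on GRCm38.p6, written 5′ to 3′ on the strand of the gene (the plus strand in each case), with matches to the searched motifs in capitals. The motifs, of which no matches overlapped between kinds, were the GC box GGGCGG, the ETS site CCGGAAG, the AP-1 site TGANTCA and the forkhead site TGTTTAC, on both strands.
Egfr, chr11:16751953-16752202: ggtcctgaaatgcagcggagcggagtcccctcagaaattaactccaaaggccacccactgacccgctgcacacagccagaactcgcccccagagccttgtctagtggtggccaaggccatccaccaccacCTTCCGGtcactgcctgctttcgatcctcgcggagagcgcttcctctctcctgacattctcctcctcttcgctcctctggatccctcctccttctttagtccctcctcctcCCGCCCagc
Fgfr3, chr5:33721474-33721723: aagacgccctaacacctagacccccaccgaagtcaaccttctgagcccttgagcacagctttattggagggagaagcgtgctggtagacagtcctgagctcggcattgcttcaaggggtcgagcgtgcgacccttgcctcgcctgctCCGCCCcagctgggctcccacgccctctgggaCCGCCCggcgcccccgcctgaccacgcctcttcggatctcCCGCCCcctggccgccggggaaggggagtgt
Fgfrl1, chr5:108693979-108694228: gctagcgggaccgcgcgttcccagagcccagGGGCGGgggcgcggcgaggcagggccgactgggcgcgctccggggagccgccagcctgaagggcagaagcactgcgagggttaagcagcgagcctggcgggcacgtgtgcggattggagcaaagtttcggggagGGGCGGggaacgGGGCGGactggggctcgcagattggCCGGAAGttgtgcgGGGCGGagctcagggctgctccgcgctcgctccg
The Egfr stretch held 1 ETS site and 1 GC box, that of Fgfr3 held 3 GC boxes, and that of Fgfrl1 held 4 GC boxes and 1 ETS site. A second start of Fgfr3 (chr5:33722056-33722305) held 2 overlapping GC boxes. No AP-1 or forkhead match was found in these 4 windows, nor any of the motifs in the windows of Fgfr2, Erbb2 and Erbb4. Among all 32851 windows of this length, 32.7% held a GC box, 6.91% an ETS site, 6.75% an AP-1 site and 3.17% a forkhead site. These matches are descriptions of the letters only.

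Egfr (chromosome 11, 16752203 to 16913907, GRCm38.p6) encodes the EGF receptor and was read by 7 probe sets, 4 of which were above the floor. Its probe set of highest mean, 1435888_at, had values of 10.09, 10.06 and 10.08 in Ctr, 10.23, 10.19 and 10.13 in C2, and 10.88, 10.89 and 10.94 in C4. All C4 arrays lay above all others, and the C2 arrays lay just above the Ctr arrays. The probe set 1424932_at gave the same order of conditions, with 9.09, 8.97 and 9.15 in Ctr, 9.12, 9.04 and 9.23 in C2, and 9.79, 9.88 and 9.97 in C4. For 1460420_a_at the values were 7.69, 7.60 and 7.62 in Ctr, 7.57, 7.58 and 7.68 in C2, and 8.12, 8.09 and 8.02 in C4. The dimmest of them, 1451530_at, had 6.22, 6.32 and 6.21 in Ctr, 6.07, 6.52 and 6.52 in C2, and 7.02, 7.24 and 7.02 in C4. In each of the 4 probe sets the C4 arrays did not overlap with the Ctr or C2 arrays, and in 3 of them the C2 and Ctr arrays did. The share of all probe sets without overlap is not given here. Lack of overlap, for Egfr and for the other receptors, therefore only describes the arrays. The samples are bulk cultures, in which a change in the share of cells of a type and a change in RNA per cell cannot be told apart.

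The rise of Egfr in C4 was 1.77-fold for 1435888_at (95% interval 1.69 to 1.86, log2 difference 0.83, standard error 0.028, adjusted p = 7.72e-05 in limma). It was 1.75-fold for 1424932_at (1.55 to 1.98, adjusted p = 0.00176) and 1.36-fold for 1460420_a_at (1.27 to 1.45, adjusted p = 0.00198). For 1451530_at it was 1.80-fold (1.44 to 2.24, adjusted p = 0.0144), a call that was lost without Ctr array 1 (adjusted p = 0.056), Ctr array 3 (0.0522) or C4 array 2 (0.0522). The other 3 probe sets of Egfr (1432647_at, 1454313_at and 1457563_at) lay at the floor, between 2.27 and 2.39 on every array. For 3 of the 4 probe sets with signal the log2 difference was 0.81 to 0.85, and for 1460420_a_at it was 0.44. Within each array, 1460420_a_at minus 1435888_at was -2.83 ± 0.083 in C4 and -2.44 ± 0.033 in Ctr (mean ± SD, n = 3), a shift of -0.39 with p = 0.1 in a two-sided exact permutation test. This is the smallest p that 3 arrays against 3 allow, so the test cannot pass 0.05 and does not decide whether the shift is more than the spread. For the other pairs with 1435888_at the shift was -0.017 (1424932_at) and 0.018 (1451530_at), with p = 0.8 in the same exact test.

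**Figure D1:**
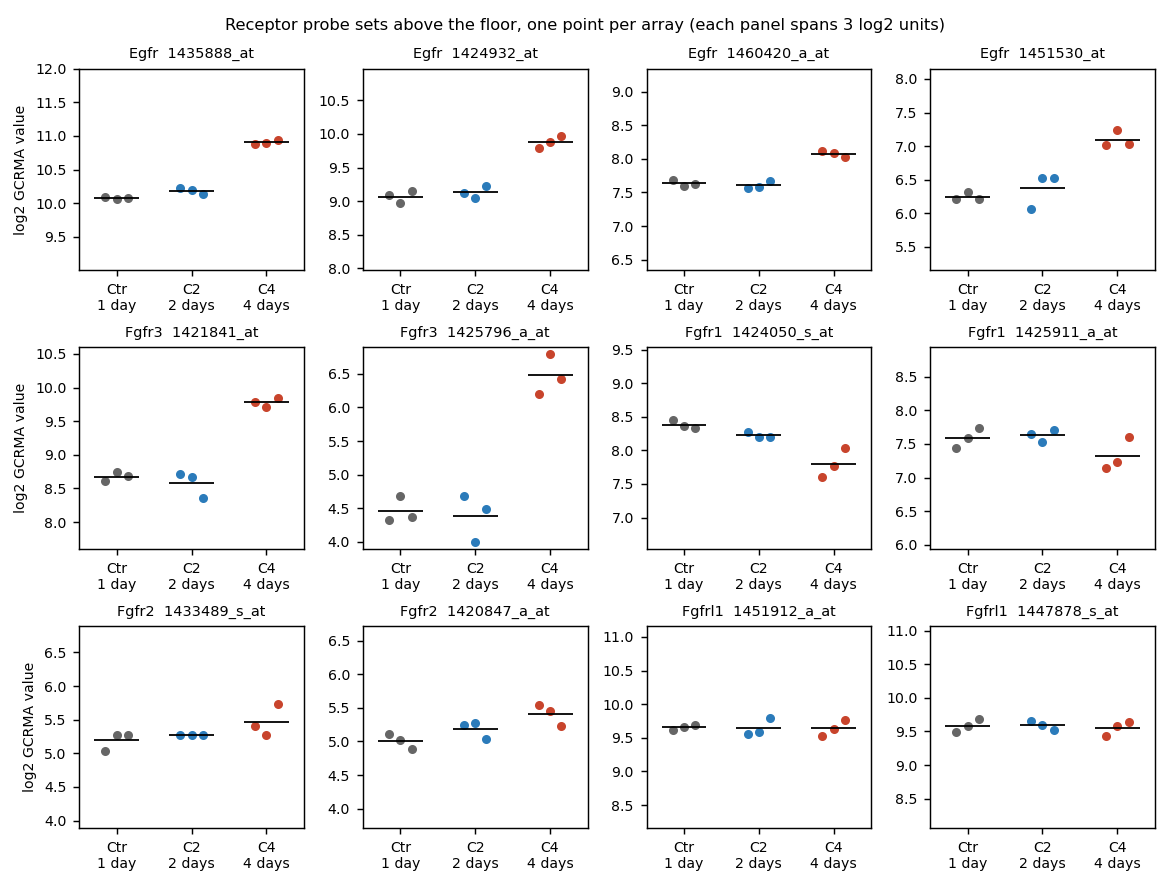
Log2 GCRMA value (vertical axis, every panel spanning 3 units) of the 12 receptor probe sets above the floor on each array, by condition (Ctr, C2 and C4, additions every 1, 2 and 4 days). Points are arrays and lines are means of 3 arrays; the C4 points of Egfr and Fgfr3 lie apart from the others in all 6 panels, those of Fgfr1 1424050_s_at lie lower (7.60 to 8.04), and those of Fgfrl1 overlap with Ctr and C2.

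Fgfr3 (chromosome 5, 33721724 to 33737068) had the largest differences among the receptors. It was read by 2 probe sets, and the one of highest mean, 1421841_at, had 8.60, 8.74 and 8.69 in Ctr, 8.72, 8.67 and 8.35 in C2, and 9.78, 9.72 and 9.84 in C4. The other, 1425796_a_at, lay near the floor in Ctr (4.33, 4.68 and 4.37) and in C2 (4.68, 3.99 and 4.48) and stood at 6.20, 6.79 and 6.43 in C4. Both probe sets placed every C4 array above every Ctr and C2 array, and left Ctr and C2 overlapping. Fgfr3 was thus 2.15-fold higher in C4 than in Ctr by 1421841_at (95% interval 1.82 to 2.53, log2 difference 1.10, standard error 0.099, adjusted p = 0.00176 in limma). By 1425796_a_at it was 4.04-fold higher (2.78 to 5.87, log2 difference 2.02, standard error 0.22, adjusted p = 0.00387), a fold that is measured less well because the Ctr values were close to the floor. Within each array, 1425796_a_at minus 1421841_at was -3.30 ± 0.34 in C4 and -4.22 ± 0.13 in Ctr (mean ± SD, n = 3). This shift of 0.91 had p = 0.1 in the exact permutation test, again the smallest possible.

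Fgfr1 (chromosome 8, 25518759 to 25575718) was the one receptor gene that was lower in C4. Its probe set of highest mean, 1424050_s_at, had 8.46, 8.36 and 8.33 in Ctr, 8.27, 8.20 and 8.20 in C2, and 7.60, 7.76 and 8.04 in C4. Its C4 arrays lay below all others and were spread more widely than those of Ctr or C2 (SD 0.22 in C4 and 0.067 in Ctr). Fgfr1 was 0.67 times as high in C4 as in Ctr by this probe set (95% interval 0.56 to 0.80, log2 difference -0.58, standard error 0.11, adjusted p = 0.0255 in limma). The call was lost when any 1 of the 3 Ctr arrays, any 1 of the 3 C2 arrays or C4 array 2 was left out (adjusted p = 0.052 to 0.0901), and over all 16 alternatives the adjusted p lay between 0.00121 and 0.112. A name ending in _s_at marks a probe set that can also bind other transcripts. The second probe set of Fgfr1 with signal, 1425911_a_at, had 7.45, 7.59 and 7.73 in Ctr, 7.64, 7.54 and 7.71 in C2, and 7.14, 7.23 and 7.60 in C4. Here the conditions overlapped and the difference of C4 from Ctr was -0.26 (-0.58 to 0.06, adjusted p = 0.452). The third, 1436551_at, had 2.79 on every array.

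Fgfr2 (chromosome 7, 130162451 to 130266808) was not called in any comparison. Its probe set 1433489_s_at had 5.04, 5.28 and 5.28 in Ctr, 5.28 on each C2 array, and 5.41, 5.27 and 5.74 in C4, a difference of C4 from Ctr of 0.28 (95% interval -0.03 to 0.58, adjusted p = 0.373 in limma). By 1420847_a_at, Fgfr2 had 5.12, 5.03 and 4.88 in Ctr, 5.25, 5.27 and 5.04 in C2, and 5.54, 5.45 and 5.23 in C4. These C4 arrays lay above the Ctr arrays without overlap, and the difference of 0.40 (0.14 to 0.65) had an adjusted p of 0.0962. It passed when only probe sets over 4 on at least 3 arrays were tested (adjusted p = 0.0259), and its adjusted p lay between 0.0135 and 0.251 over all 16 alternatives. The third probe set of Fgfr2, 1443211_at, stood at 2.27 throughout.

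Fgfrl1 (chromosome 5, 108694229 to 108706950), the receptor without a kinase, was nearly flat. By 1451912_a_at it had 9.62, 9.66 and 9.68 in Ctr, 9.55, 9.59 and 9.79 in C2, and 9.52, 9.64 and 9.76 in C4. By 1447878_s_at it had 9.49, 9.58 and 9.69 in Ctr, 9.65, 9.60 and 9.52 in C2, and 9.43, 9.58 and 9.64 in C4. The conditions overlapped in both. The difference of C4 from Ctr was -0.02 (95% interval -0.21 to 0.18) and -0.04 (-0.21 to 0.14), with an adjusted p of 1 in limma. As folds, these intervals span 0.86 to 1.13 and 0.86 to 1.10 times the Ctr level.

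The other ErbB receptors gave no signal. Erbb2 (chromosome 11, 98412484 to 98437716) stood at 2.64 on every array, and both probe sets of Erbb3 (chromosome 10, 128567523 to 128589635) stood at 2.27. Erbb4 (chromosome 1, 68031884 to 69108576) lay between 2.79 and 2.92. A difference between conditions was not detectable in these 3 genes on this array. Fgfr4, the remaining kinase receptor of the FGF family, is not among the 8 genes, and its 5 probe sets lay between 2.27 and 2.28.

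**Figure D2:**
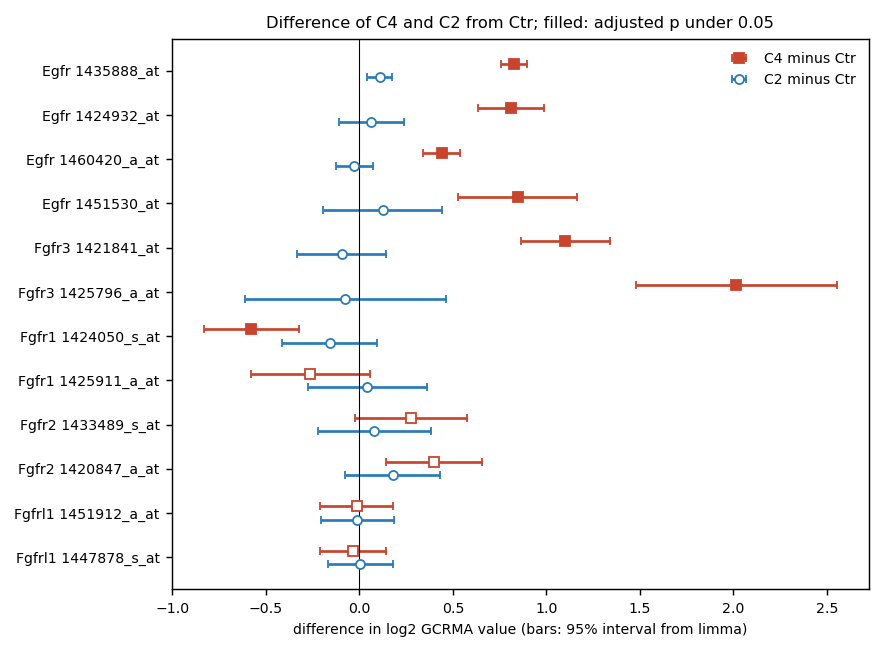
Difference in log2 GCRMA value of C4 (squares) and C2 (circles) from Ctr for the 12 receptor probe sets above the floor, with 95% intervals from limma as bars; filled symbols have an adjusted p under 0.05. The 6 filled symbols of Egfr and Fgfr3 lie between 0.44 and 2.02, that of Fgfr1 lies at -0.58, and no C2 symbol is filled.

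Counted over all 21 probe sets, 6 were higher and 1 was lower in C4 than in Ctr, where 3.78% of all probe sets tested were called higher and 2.51% lower. Among the probe sets above the floor the background was 8.99% higher and 5.94% lower. With 1 probe set per gene, that of the highest mean, 2 of the 8 receptor genes were higher and 1 was lower, against 5.65% and 3.55% of all 18193 genes. A difference of at least 1, the threshold named in the study's methods, was reached by the 2 probe sets of Fgfr3, and by 0.693% of all probe sets in either direction. The median difference over all genes above the floor was 0.05. The study itself listed Fgfr3 as increased in C4 on these arrays. It also measured Egfr, Fgfr1, Fgfr2 and Fgfr3 by RT-qPCR, a PCR measure of RNA, in Ctr and C4 cultures of adult and embryonic stem cells. There, Egfr, Fgfr2 and Fgfr3 appeared higher in C4, but without statistical significance. A significant rise of Fgfr1 was reported for the embryonic cells, and no change of Fgfr1 with the interval was named for aOBSCs.

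Between C2 and Ctr, which share the Ctr arrays with the comparison above, 0 of the 21 receptor probe sets were called with limma, and 1 had an unadjusted p under 0.05, while 1.70% of all probe sets were called in either direction. That one was Egfr 1435888_at, whose C2 arrays lay above the Ctr arrays by 0.11 (95% interval 0.04 to 0.18, adjusted p = 0.17 in limma). The other probe sets of Egfr with signal differed by 0.06, -0.03 and 0.12. For Fgfr3 1421841_at the difference of C2 from Ctr was -0.10 (-0.33 to 0.14), and for Fgfr1 1424050_s_at it was -0.16 (-0.41 to 0.09), both with intervals that include 0. The largest difference of C2 from Ctr among the 12 probe sets above the floor was 0.18 for Fgfr2 1420847_a_at (-0.08 to 0.43, adjusted p = 0.735).

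Between C4 and C2, 6 of the 21 receptor probe sets were higher and 0 were lower, where 2.86% of all probe sets were called higher and 2.39% lower. They were the same 4 probe sets of Egfr and 2 of Fgfr3. Egfr was 1.65-fold higher in C4 than in C2 by 1435888_at (95% interval 1.57 to 1.73, adjusted p = 6.79e-05 in limma), and Fgfr3 was 2.29-fold higher by 1421841_at (1.94 to 2.70, adjusted p = 0.00129). Fgfr3 by 1425796_a_at was 4.26-fold higher in C4 than in C2 (2.93 to 6.19, adjusted p = 0.00379). The call of Egfr 1451530_at (difference 0.72, adjusted p = 0.029) was lost without any 1 of the 3 Ctr arrays, C2 array 2 or any 1 of the 3 C4 arrays (adjusted p = 0.0549 to 0.0909). For Fgfr1 1424050_s_at the difference of C4 from C2 was -0.42 (-0.67 to -0.17, adjusted p = 0.0905), and it passed without C4 array 3 (adjusted p = 0.0113). Ordered by interval, Egfr and Fgfr3 thus had Ctr and C2 as neighbours that did not differ beyond their spread, except for the shift of Egfr 1435888_at given above, and C4 apart from both.

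Most ligands of these receptors were not detected on these arrays. Of 10 ErbB ligand genes measured, 2 were above the floor, 1 was higher in C4 than in Ctr and 0 were lower, where 5.65% of all genes were higher and 3.55% lower. Tgfa, which encodes the EGFR ligand TGF-alpha, had 4.73, 5.31 and 4.96 in Ctr, 5.15, 5.16 and 5.26 in C2, and 5.73, 6.10 and 5.80 in C4, a difference of C4 from Ctr of 0.88 (adjusted p = 0.0272 in limma). The other probe sets of Tgfa lay at the floor. Hbegf, which encodes the EGFR ligand HB-EGF, averaged 8.42, 8.67 and 8.08 in Ctr, C2 and C4 and was not called against Ctr (difference -0.34, adjusted p = 0.224). Against C2, Hbegf was called lower in C4 (difference -0.59, adjusted p = 0.0454 in limma). This call was lost in 8 of the 9 fits that left out 1 array (adjusted p = 0.0604 to 0.151). Of 22 FGF genes measured, 3 were above the floor, 1 was higher in C4 and 0 were lower. The one called was Fgf13 (difference 0.88, adjusted p = 0.00177), whose protein acts inside the cell and is not a ligand of these receptors. Fgf1, a ligand of all FGF receptors, averaged 8.38, 8.33 and 8.33 in Ctr, C2 and C4. The genes of the added factors, Egf (highest mean 2.74) and Fgf2 (2.27), lay at the floor. The study measured both in aOBSCs by RT-qPCR and reported more Fgf-2 in C4 than in Ctr. Values at the floor thus mean that these probe sets did not see the transcripts, and not that they were absent.

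Among the partners and carriers of the receptors and the proteins downstream, calls in C4 against Ctr were few and went both ways. Their counts stand against the 5.65% of all genes called higher and the 3.55% called lower, so that 1 called gene in a list of 10 or 15 is close to the background. Among probe sets above the floor, where most of these genes lay, the shares were 8.99% and 5.94%. Of 14 genes for FGF coreceptors and heparan sulphate carriers measured, 10 were above the floor, 3 were higher (Gpc1, Sdc3 and Agrn, by 0.69, 0.62 and 0.49) and 1 was lower (Sdc1, difference -0.41). As the mean over its probe sets the difference of Sdc1 was -0.14 and was not called (adjusted p = 0.108 in limma). Of 10 genes for sheddases, which release ErbB ligands or cut the receptors, and for proteins that regulate them, 8 were above the floor, 1 was higher (Rhbdf1, by 0.24) and 2 were lower (the proteases Adam10 and Adam19, differences -0.46 and -0.53). Rhbdf1 encodes iRhom1, which has no protease activity and is a partner of the sheddase ADAM17. Of 15 adaptors, RAS proteins and MAP kinases, 14 were above the floor, 1 was higher (Nras, by 0.41) and 2 were lower (Shc1 and Sos2, differences -0.51 and -0.67). Of 8 genes of the PI3K and AKT arm, 7 were above the floor and 2, both regulatory subunits of PI3K, were higher (Pik3r1 and Pik3r3, by 0.73 and 0.38). The list of receptor inhibitors and of proteins that degrade or recycle the receptors also held the FLRT family. Of its 19 genes, 17 were above the floor, 2 were higher and 0 were lower. These were Ptpn1, a phosphatase of several receptors (0.31), and Flrt2, of a family of membrane proteins that bind FGF receptors, which had 5.71, 5.53 and 5.13 in Ctr, 5.79, 5.80 and 5.61 in C2, and 6.77, 6.71 and 6.99 in C4 (difference 1.37, adjusted p = 0.00433 in limma).

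Genes that ERK signalling is known to induce, several of which act back on the pathway as inhibitors, were lower in C4 than in Ctr where they were called. Of 12 measured, 10 were above the floor, 0 were higher and 6 were lower, where 5.65% of all genes were higher and 3.55% lower, and the median difference of those above the floor was -0.41, against 0.05 for all genes above the floor. The shares of all genes include those at the floor, and among probe sets above it they were 8.99% and 5.94%. Spry4, an inhibitor of RAS signalling, had 10.50, 10.41 and 10.06 in Ctr, 9.78, 9.85 and 9.75 in C2, and 9.01, 8.72 and 8.87 in C4, by its probe set of highest mean, with no overlap between the 3 conditions (difference of C4 from Ctr -1.46, adjusted p = 0.00145 in limma). Of its other 3 probe sets, 1 was called lower (-1.03, adjusted p = 0.00551), 1 was not called and had C2 arrays that overlapped with both other conditions (-0.57, adjusted p = 0.128), and 1 lay at the floor, and the mean over all of them differed by -0.83. The others were Spry1 (-0.62), the ERK phosphatase Dusp6 (-0.57), the ETS factor Etv5 (-0.50), Spred2 (-0.45) and Spred1 (-0.37). In C2, 0 of the 12 were called against Ctr with limma and 2 had an unadjusted p under 0.05, where 2.52% of all genes were called in either direction. In the 8 lists of the pathway together, 110 genes were measured, 71 were above the floor, and 11 were higher and 11 were lower in C4. The shares were again 5.65% and 3.55% of all genes, and 8.99% and 5.94% of the probe sets above the floor. Of these 22 calls, 10 (Tgfa, Gpc1, Sdc3, Rhbdf1, Shc1, Sos2, Pik3r3, Ptpn1, Etv5 and Spred1) were lost when some single array was left out, with an adjusted p of 0.051 to 0.13 in those fits, and each of the 9 arrays cost at least 1 of them its call. Of the other 12, Sdc1 and Adam19 (adjusted p = 0.108 and 0.0584) lost it as the mean over their probe sets, Agrn with the arrays of C4 and Ctr alone (0.0626), and Spred2 with a robust prior (0.0523) or the replicate number as a block (0.0514).

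**Figure D3:**
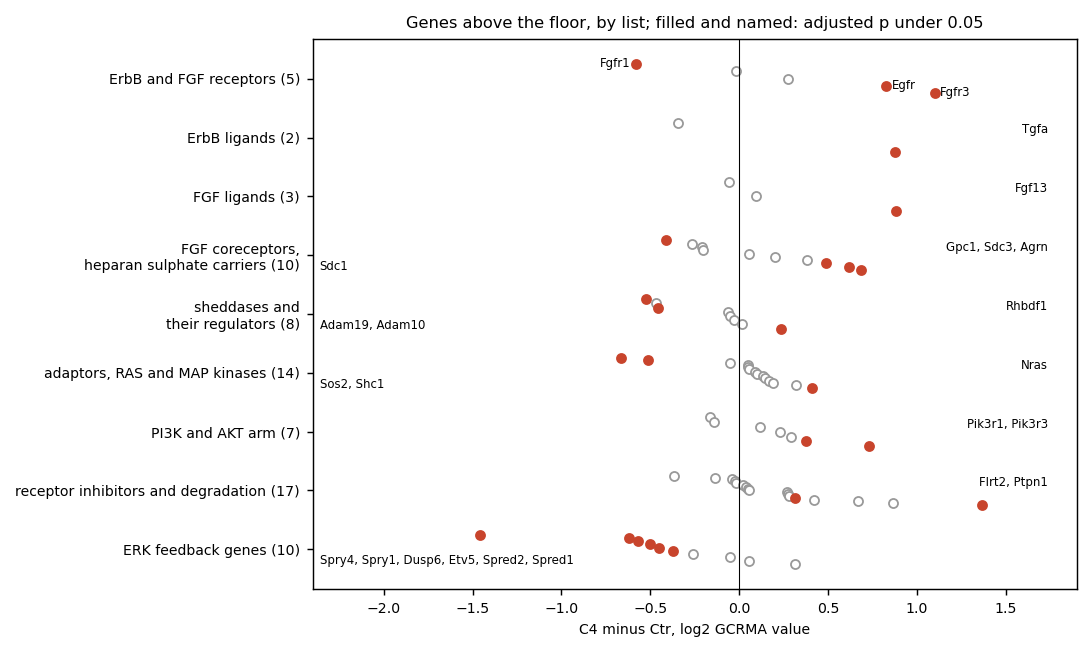
Difference of C4 from Ctr in log2 GCRMA value for the genes above the floor of each list, 1 point per gene (number of genes in brackets). Filled points have an adjusted p under 0.05 and are named beside the list; among the ERK feedback genes, 6 of 10 points are filled, all below 0, and Egfr, Fgfr3 and Flrt2 are the filled points at 0.83, 1.10 and 1.37.

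Some markers of cell types also differed between C4 and Ctr, where 5.65% of all genes were higher and 3.55% lower. Among probe sets above the floor, 8.99% were higher and 5.94% lower. Of 8 astrocyte markers measured, 7 were above the floor and 4 were higher in C4 than in Ctr (Aldh1l1, S100b, Aqp4 and Aldoc, by 1.11, 1.05, 0.72 and 0.23), Gfap lay at the floor, and the summed log2 value of the 8 ranged between 72.7 and 73.8 in C4, and between 69.2 and 69.6 in Ctr. The study stained aOBSC neurospheres for the GFAP protein and reported a larger proportion of positive cells in C4 than in Ctr. The floor value of Gfap thus does not mean that it was absent. Of 11 markers of neural stem and progenitor cells, 10 were above the floor and 5 were higher (among them Pax6, Nr2e1, Hes1 and Fabp7, by 0.57, 0.48, 0.40 and 0.34), with sums of 100.6 to 101.4 in C4 and 97.7 to 98.3 in Ctr. Of 8 markers of the oligodendrocyte lineage, 3 were above the floor and all 3 were higher (Gpr17, Pdgfra and Cspg4, by 2.70, 0.94 and 0.61), with sums of 31.3 to 32.8 in C4 and 27.7 to 28.2 in Ctr, while Mbp, Mag, Mog and Sox10 lay at the floor. Of 9 neuronal markers, 2 were above the floor and 1 (Gad1, difference -0.37) was lower in C4, with sums of 38.0 to 38.3 in C4 and 38.3 to 38.4 in Ctr. Of 5 markers of olfactory ensheathing cells, Fabp7 was the 1 above the floor, and of 8 markers of pericytes and fibroblasts, 1 was above the floor and 0 were called with limma or had an unadjusted p under 0.05. Of the 12 called markers named here, 6 (Aldoc, Nr2e1, Hes1, Pdgfra, Cspg4 and Gad1) lost the call when some single array was left out (adjusted p = 0.0504 to 0.117), and each of the 9 arrays cost at least 1 of them its call. Of the other 6, Pax6 lost it as the mean over its probe sets (difference 0.22, adjusted p = 0.133) and Aqp4 with the replicate number as a block (0.0522). Between C2 and Ctr, where Egfr and Fgfr3 were not called, 2 of the named markers were lower in C2, Aldh1l1 (difference -0.76, adjusted p = 0.0107 in limma) and Gpr17 (difference -1.71, adjusted p = 0.0272), the first lost with a robust prior (0.0728) and the second without any 1 of the 3 Ctr arrays, C2 array 1, or C4 array 2 or 3 (0.0531 to 0.0992). For Gpr17 the study's RT-qPCR of aOBSCs gave the other direction, with higher levels in C2 than in Ctr. The summed values in C2 were 68.5 to 69.6 for astrocytes and 25.0 to 26.1 for the oligodendrocyte lineage. They were 98.3 to 99.05 for neural stem and progenitor cells and 38.0 to 38.1 for neurons. The part of these markers in the differences of Egfr, Fgfr3 and Fgfr1 was not tested.

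The genes whose values followed a receptor most closely were sought among all genes with a mean of at least 4, by the root mean square difference of the values, each centred on its mean over the 9 arrays. Nearest to Egfr were Cst3 (cystatin C, 0.042 log2 units), Klhl23 (0.048) and Slc7a2, a transporter of cationic amino acids (0.053), whose differences of C4 from Ctr were 0.82, 0.74 and 0.82, where that of Egfr was 0.83. Nearest to Fgfr3 were Asrgl1 (0.076), Nsg2 (0.12) and Smoc1, a secreted matrix protein (0.13), with differences of 1.21, 1.01 and 1.13, where that of Fgfr3 was 1.10. Nearest to Fgfr1 were Atp13a3 (0.046), Piga (0.075) and Insr, the insulin receptor (0.076), with differences of -0.66, -0.50 and -0.53. Piga was not called in C4 (adjusted p = 0.156 in limma), the call of Atp13a3 (adjusted p = 0.0268) was lost when any 1 of the Ctr arrays, C2 array 2 or 3, or C4 array 2 was left out (adjusted p = 0.0541 to 0.0931), and Insr was called at 0.000875. Likeness over 9 arrays is a description.

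**Figure D4:**
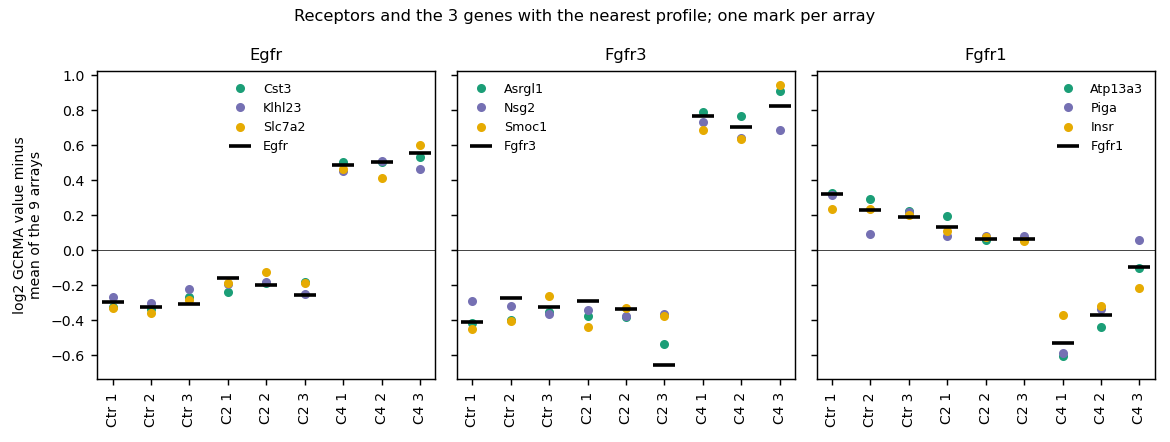
Log2 GCRMA value minus the mean of the 9 arrays (vertical axis) on each array of Ctr, C2 and C4 for Egfr, Fgfr3 and Fgfr1 (black bars) and the 3 genes nearest to each (points). In the Egfr and Fgfr3 panels the C4 arrays stand above 0 and all others below it; in the Fgfr1 panel the C4 bars are the lowest.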

How the data were processed

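RNA of aOBSC neurospheres had been hybridised to 9 Affymetrix Mouse Genome arrays, 3 for each of Ctr, C2 and C4. The authors corrected the probe intensities for background by probe sequence, normalised the arrays to each other and summarised them per probe set with GCRMA, and the deposited values, on the log2 scale, were used as they stand. The version of GCRMA is not given in the sources used here. Quantile normalisation of this kind removes differences in the total signal between arrays. The number of arrays limits the precision, and a depth as a count does not exist for them.

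Of 45101 probe sets, 64 Affymetrix controls were left out and the other 45037 were fitted without a filter in R 4.3.3 with limma 3.58.1, with 1 mean per condition over all 9 arrays and a variance prior that follows intensity (prior of 0.574 and residual of 6 degrees of freedom). The Benjamini-Hochberg adjustment was made over all 45037 within each contrast, and the fit was tested on simulated data. Probe sets were named by the platform annotation supplied (34945 with 1 gene symbol, 932 with several, 9160 with none), all 21 receptor probe sets carry 1 symbol, and gene positions and promoter sequences came from RefSeq on GRCm38.p6. Promoter windows were at hand for 6 of the 8 receptors. Where a gene had several probe sets, that of the highest mean stands for it.

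Named genes are the 8 receptors with all their probe sets, up to 4 genes of each list with the largest difference among those called in C4, defining markers, and the 3 genes of nearest profile for each called receptor. The 16 lists were written from general knowledge, and the receptors and lists were chosen with earlier results of these data known. Outside this rule, Egf, Fgf1, Fgf2, Fgfr4, Hbegf, Spred1 and Spred2 were named after their values were seen. The alternatives were the replicate number as a block, a robust and an untrended variance prior, the arrays of the compared conditions alone, a filter on dim probe sets (over 4 on at least 3 arrays), centring of each array on its median, omission of probe sets named _s_at or _x_at, the mean over a gene's probe sets, and omission of each array in turn.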

Additional observations from a re-analysis of the deposited data

How the results depend on the processing

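The number of receptor probe sets called was 7 in C4 against Ctr, 6 in C4 against C2 and 0 in C2 against Ctr. With 1 array left out it ranged between 5 and 7, 5 and 6, and stayed at 0, and under the other alternatives between 6 and 8, 5 and 7, and stayed at 0. Egfr (1435888_at, 1424932_at and 1460420_a_at) and both probe sets of Fgfr3 kept their calls in C4 against Ctr and against C2 under each alternative that could be run. As the mean over all its probe sets, which for Egfr include the 3 at the floor, the difference of C4 from Ctr was 0.42 for Egfr (0.83 by 1435888_at) and 1.56 for Fgfr3 (1.10 by 1421841_at). Fgfr1 1424050_s_at against Ctr was lost also with a robust prior (adjusted p = 0.0619), with the arrays of the 2 conditions alone (0.112) and as the mean over the gene's probe sets (difference -0.28, adjusted p = 0.0591), and has no value without probe sets that may bind other transcripts. Against C2, the same probe set passed with the filter on dim probe sets (adjusted p = 0.0172) and with centred arrays (0.0117), and Egfr 1451530_at was lost with a robust prior (0.0733) and with the arrays of the 2 conditions alone (0.126). As the mean over its probe sets, Fgfr2 was higher in C4 than in Ctr by 0.22 (adjusted p = 0.00785). No called difference changed its sign.

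The count over all probe sets depended more on the setting. In C4 against Ctr it was 2833, with 1386 under a robust prior, 1618 with the arrays of the 2 conditions alone, 4697 with the filter on dim probe sets and 1818 without Ctr array 2. In C4 against C2 it was 2363, with 1178, 1404 and 3908 under the same first 3 settings and 1485 without C2 array 2. In C2 against Ctr it was 767, with 45, 371 and 1825 under those settings, and between 323 and 421 without Ctr array 1 or 2 or any 1 of the C2 arrays. The replicate numbers of the labels were not treated as pairs. In their deviations from the condition means, arrays of the same number correlated at -0.043 to 0.13, and arrays of different numbers at -0.12 to 0.092. Above the latter range stood C4 array 1 with Ctr array 1 (0.13) and C2 array 3 with Ctr array 3 (0.12). With the replicate number as a block, 7, 6 and 0 receptor probe sets were called in C4 against Ctr, C4 against C2 and C2 against Ctr, Fgfr1 1424050_s_at was not called (adjusted p = 0.0898) and Fgfr2 1420847_a_at was (0.0135), and 237 probe sets in all were called in C2 against Ctr.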
